A study of Mus musculus with 28 samples.

Results

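The genes described here are 46 interferon-stimulated genes, a list of names chosen with earlier results of these data known. Each was found as a row of the deposited expression table of 25124 genes. Their RNA was measured by sequencing in 28 libraries of CD4+ T cells sorted from small-intestinal lamina propria of mice as live CD45+, CD90.2+, TCRb+ and CD4+ cells. All mice carried the T-bet-ZsGreen reporter genotype, so the controls carried it too, and they were kept either specific-pathogen-free (SPF), where gut microbes are present, or germ-free (GF). Each mouse was given either aCD3, an antibody to the CD3 chains that stimulates T cells through their antigen receptor, or its isotype control. There were 6 libraries each of SPF mice given isotype, SPF mice given aCD3 and GF mice given aCD3, and 10 of GF mice given isotype, and replicates are named by the letter for sex and a number, as in F1 or M3. Age, dose and the time from injection to sampling are not given in the sources used here. The reporter marks cells that express T-bet, and the sort took all CD4+ T cells, with or without it.

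Interferons are cytokines that signal through cell-surface receptors and the kinases Jak1, Tyk2 and Jak2. Type I interferon leads to a complex with Stat2 and Irf9 that binds the interferon-stimulated response element (ISRE), while interferon gamma, made by T cells, acts through the gamma-activated site (GAS). The genes these factors induce encode sensors of foreign nucleic acid, enzymes that block virus replication, and regulators that amplify or end the response. In the intestinal mucosa interferons act on epithelium and lymphocytes alike, and T cells both make interferon gamma and respond to interferons.

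Values are TPM, a share of each library's total, computed by the authors over gene length. Because the length was that of the whole gene with its introns, levels are compared between libraries and not between genes. Read totals recovered from the table were 6765526 to 17860819 per library, and 44 of the 46 genes passed the filter of at least 1 TPM in at least 6 libraries. Differences are log2 fold changes on the log2(TPM + 1) scale, tested with limma over 12182 genes, and a gene is called when its Benjamini-Hochberg adjusted p is under 0.05. The median gene shifted by -0.35 on the log2 scale in SPF aCD3 against SPF isotype and by 0.34 in GF aCD3 against SPF aCD3, so results are also given after scaling by median of ratios, which removes the shift. Nothing in the labels says whether libraries of a group came from separate animals, so p-values measure the spread between these libraries.

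The 6 GF aCD3 libraries differed widely from each other. Lag3, an inhibitory receptor that T cells make after activation, was 498, 452 and 527 TPM in M1, M2 and M5, but 9.59, 17.03 and 12.3 TPM in F1, M3 and M4, which lie within the 5.41 to 18.5 TPM of the 16 isotype libraries. Whether these 3 libraries carry the right treatment label was not tested, so every value of the GF aCD3 group depends on that label. Counts of calls in TPM that use this group are also given without single libraries, as are the genes named where such a call changed, while values after scaling were computed with all libraries only. By the numbers in the column names, the SPF libraries were numbered 1 to 12 and the GF libraries 25 to 33 and 48 to 54, and whether these numbers mark separate sequencing runs is not stated. The germ-free state and the number series cannot be told apart. The markers of CD4 T cells were present throughout, with all 9 reaching 1 TPM and a summed level of 1774 to 2459 TPM over the 28 libraries.

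The promoters of the members carried the ISRE core more often than promoters at large, as a description of sequence and not of binding. RefSeq gave windows of 300 bases, from 250 before to 50 after a transcript start, for 35 of the 46 members and for 27025 genes in all. The ISRE core, searched on both strands as GAAA, any 2 bases and GAAA again with overlaps counted, was present for 16 of the 35 members (45.7%), against 3.99% of all genes. It was present for 11 of 19 members that rose after aCD3 in SPF mice (57.9%) and for 5 of the 14 other tested members with a window (35.7%). The GAS, searched as TTCNNNGAA, was present for 5 of 35 members (14.3%), against 9.55% of all genes. The members with an ISRE core were Bst2, Ddx58, Eif2ak2, Ifih1, Ifit1, Ifit3, Ifit3b, Isg15, Oas1a, Oas3, Phf11b, Rsad2, Slfn5, Slfn8, Stat2 and Trim30a. Those without a window were Oas2, Dhx58, Zbp1, Usp18, Mx1, Rtp4, Parp9, Parp14, Ifi27l2a, Ly6a and Tor3a.

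The following stretches are the 200 bases before the transcript start on the gene's strand (RefSeq, GRCm38.p6, the assembly known as mm10), with matches to the ISRE core on either strand in capitals. They are shown because Isg15, Ifit1, Oas1a and Phf11b rose after aCD3 in SPF mice while Ifit3 and Ifit3b, with the same letters, were not called in TPM, although Ifit3 was higher after scaling by median of ratios.
Isg15 (chr4:156200819-156201018, minus strand): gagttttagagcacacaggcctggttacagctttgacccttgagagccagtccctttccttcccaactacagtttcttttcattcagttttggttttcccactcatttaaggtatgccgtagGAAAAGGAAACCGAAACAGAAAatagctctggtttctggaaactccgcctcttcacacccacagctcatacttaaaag
Ifit1 (chr19:34640689-34640888, plus strand): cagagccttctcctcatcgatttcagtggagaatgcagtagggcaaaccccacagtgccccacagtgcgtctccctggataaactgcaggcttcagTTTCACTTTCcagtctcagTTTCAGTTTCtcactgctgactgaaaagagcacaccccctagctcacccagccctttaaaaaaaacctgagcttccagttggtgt
Ifit3 (chr19:34583329-34583528, plus strand): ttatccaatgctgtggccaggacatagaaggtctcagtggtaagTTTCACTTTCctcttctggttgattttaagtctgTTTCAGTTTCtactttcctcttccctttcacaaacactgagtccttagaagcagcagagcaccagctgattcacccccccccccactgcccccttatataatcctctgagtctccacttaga
Ifit3b (chr19:34607757-34607956, plus strand): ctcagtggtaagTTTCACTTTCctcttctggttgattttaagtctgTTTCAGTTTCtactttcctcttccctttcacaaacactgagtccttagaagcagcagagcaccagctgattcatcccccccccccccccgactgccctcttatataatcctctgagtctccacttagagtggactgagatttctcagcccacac
Oas1a (chr5:120907526-120907725, minus strand): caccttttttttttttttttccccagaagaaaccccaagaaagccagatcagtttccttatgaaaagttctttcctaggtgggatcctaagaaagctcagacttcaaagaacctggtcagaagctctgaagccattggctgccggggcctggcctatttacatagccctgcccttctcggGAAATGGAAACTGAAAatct
Phf11b (chr14:59341331-59341530, minus strand): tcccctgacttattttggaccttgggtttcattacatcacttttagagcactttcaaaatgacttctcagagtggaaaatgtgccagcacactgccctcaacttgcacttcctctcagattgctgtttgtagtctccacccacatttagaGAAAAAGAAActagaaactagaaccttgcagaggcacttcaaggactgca
In Isg15 a run of 3 overlapping matches began 78, 72 and 66 bases before the start. Ifit1 held 2 separate matches on the opposite strand, and its neighbours Ifit3 and Ifit3b held matches with the same letters as those of Ifit1, farther from the start. In Oas1a 2 overlapping matches began 20 and 14 bases before the start, and in Phf11b 1 match began 50 bases before it.

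After aCD3 in SPF mice most of the tested interferon-stimulated genes rose, led by Ifi27l2a and Ly6a. Of the 44 tested members 28 rose and 4 fell, and 12 were not called. Among all 12182 genes 14.2% rose and 50.7% fell in the same comparison, 64.8% in either direction. Because the list was chosen with earlier results of these data known, these counts describe it and are no independent test. The members' median log2 fold change was 0.88, against -0.35 for all genes tested. After scaling by median of ratios 37 members were higher and 1 lower, with a median of 1.25, against 30.2% and 29.8% of all genes. The 28 that rose were called in the same direction after scaling, but of the 4 that fell, Ifi47 alone was. In 15 members all 6 SPF aCD3 libraries were above all 6 SPF isotype libraries, and in 4 they were all below, against 8.57% and 33.4% of all genes.

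**Figure D1:**
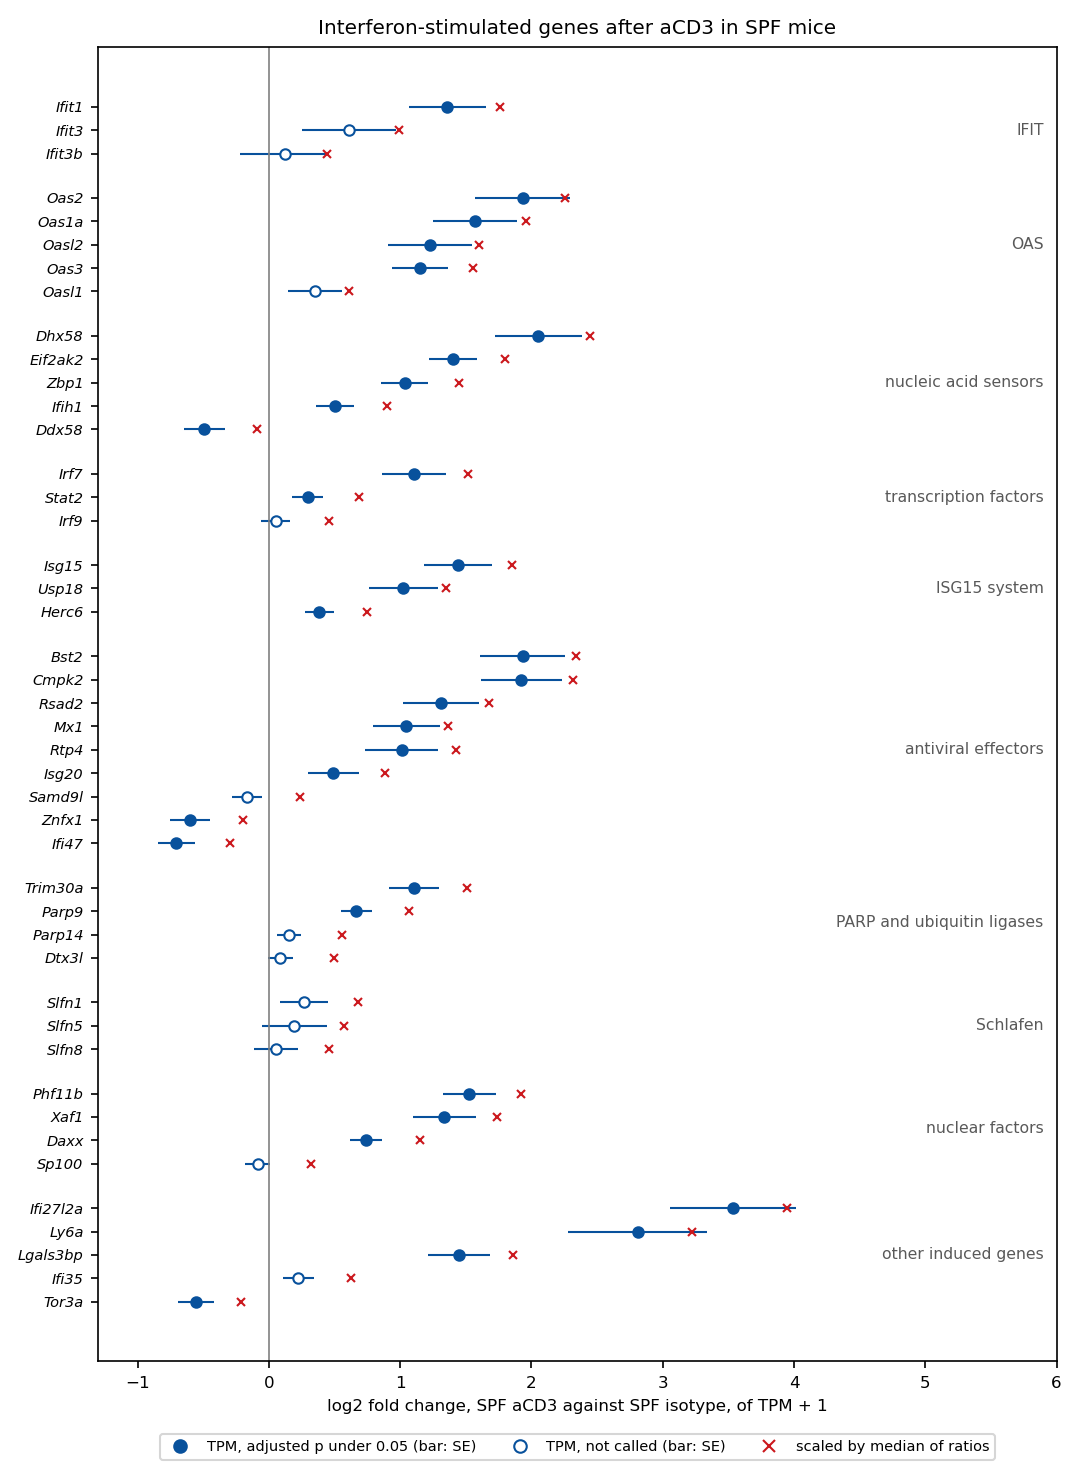
Log2 fold change (x axis, log2 of TPM + 1) of the 44 tested members in SPF aCD3 against SPF isotype, grouped by role; points are limma estimates with their SE, filled where the adjusted p is under 0.05, and crosses are the estimates after scaling by median of ratios. Ifi27l2a at 3.54 and Ly6a at 2.81 lie farthest to the right, and the 4 genes that fell lie between -0.70 and -0.49.

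Ifi27l2a, which encodes a small protein strongly induced by type I interferon, had the highest log2 fold change. It lies at chr12:103442166-103443680 (mm10, NM_029803) and measured 31.6 to 95.9 TPM (median 56.9) in SPF isotype and 392 to 817 TPM (median 704) in SPF aCD3. The lowest of the SPF aCD3 libraries, F1, was still above every isotype library (log2 fold change 3.54, SE 0.48, limma adjusted p = 4.2e-06). Ly6a, the surface protein also called Sca-1 that lymphocytes display on activation, measured 85.2 to 168 TPM (median 135) in SPF isotype and 645 to 1297 TPM (median 920.3) in SPF aCD3. The groups did not overlap (log2 fold change 2.81, SE 0.53, limma adjusted p = 7.82e-05). Lgals3bp, a secreted glycoprotein, rose as well, with a log2 fold change of 1.45 (limma adjusted p = 2.08e-05). Tor3a, an ATPase of the endoplasmic reticulum, went the other way. It measured 6.41 to 7.74 TPM (median 6.89) in SPF isotype and 3.102 to 5.43 TPM (median 4.52) in SPF aCD3, with no overlap (log2 fold change -0.56, SE 0.14, limma adjusted p = 0.00117). After scaling its log2 fold change was -0.21 (adjusted p = 0.0887), so it did not pass the test once the shift of all genes was removed.

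**Figure D2:**
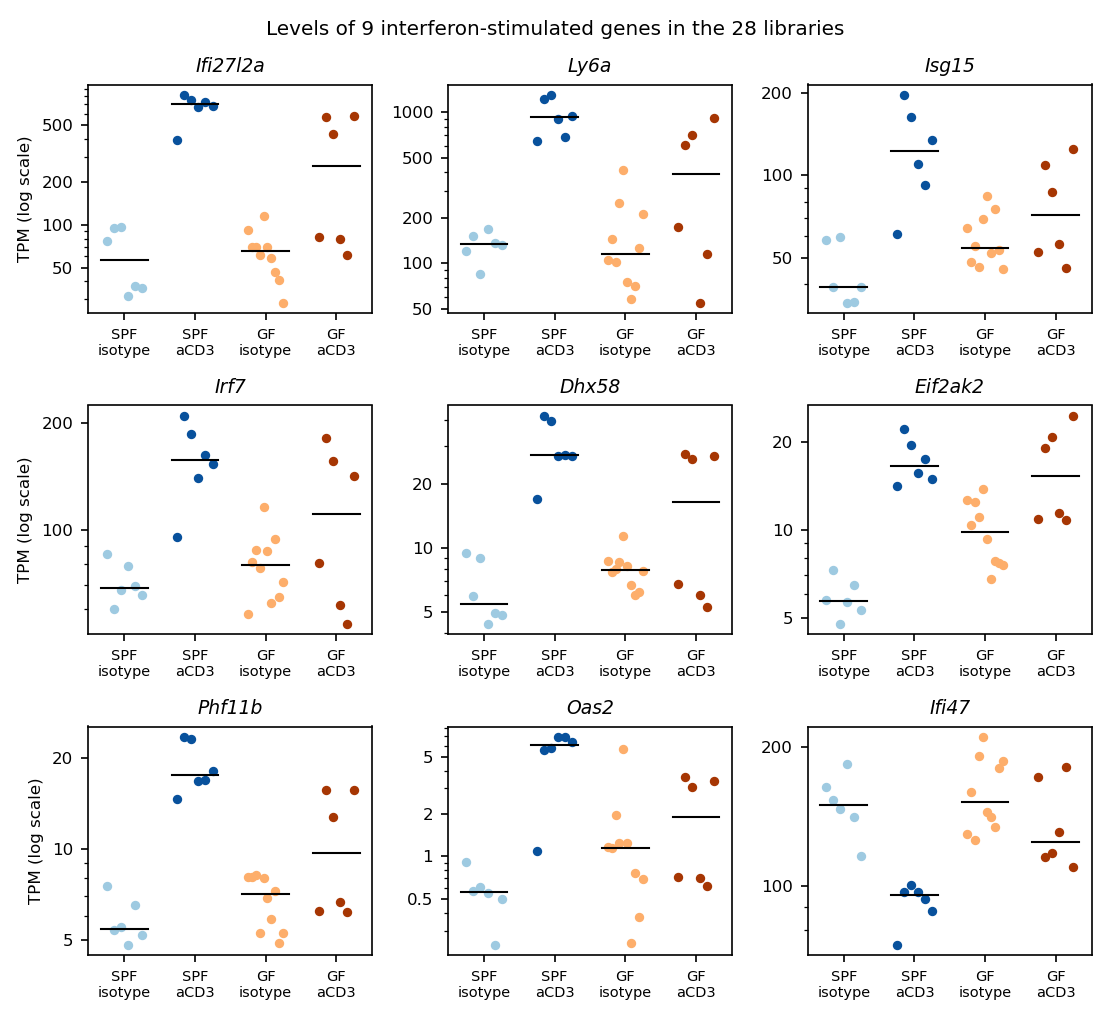
TPM (y axis, log scale) of 9 members in the 28 libraries, by group; points are libraries, in the order of their names, and bars are group medians. In Ifi27l2a the SPF aCD3 libraries sit between 392 and 817 TPM and the SPF isotype libraries between 31.6 and 95.9 TPM, while GF aCD3 M1, M2 and M5 lie above and F1, M3 and M4 within the GF isotype range.

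The OAS enzymes, which sense double-stranded RNA and make the oligoadenylates that switch on RNase L, rose in 4 of 5 cases. Oas2 measured 0.24 to 0.916 TPM (median 0.561) in SPF isotype and 1.098 to 6.91 TPM (median 6.09) in SPF aCD3. Every SPF aCD3 library was above every isotype library, with F1 far below the other 5 (log2 fold change 1.93, SE 0.36, limma adjusted p = 7.3e-05). Oas2 passed the low-value filter through libraries outside SPF isotype, where all were under 1 TPM. Oas3 measured 11.8 to 18.2 TPM (median 14.1) and 17.7 to 48.7 TPM (median 35.3), and 5 of the 6 SPF aCD3 libraries were above all isotype libraries (log2 fold change 1.15, SE 0.21, limma adjusted p = 6.56e-05). Oas1a and Oasl2 had log2 fold changes of 1.57 and 1.23. Oas1a shares 32.43% of its transcript, in windows of the read length of 150 bases, with Oas1g, so its count could include reads of that copy. Oasl1, a family member without enzyme activity, was higher after scaling (0.61, adjusted p = 0.0145) and not called in TPM, at 0.639 to 2.76 TPM (median 0.864) and 0.819 to 3.84 TPM (median 1.37) (log2 fold change 0.35, SE 0.20, limma adjusted p = 0.133).

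Of the 3 IFIT genes, a family whose proteins act on foreign RNA, Ifit1 alone was called in TPM, and Ifit1 and Ifit3 were called after scaling. Ifit1 (chr19:34640889-34650009, NM_008331) measured 11.1 to 22.9 TPM (median 14.03) in SPF isotype and 19.2 to 54.8 TPM (median 43.8) in SPF aCD3. The SPF aCD3 library F1 lay within the isotype range and the other 5 above it (log2 fold change 1.36, SE 0.29, limma adjusted p = 2.94e-04). Its neighbours Ifit3 and Ifit3b had log2 fold changes of 0.61 and 0.12 (adjusted p = 0.136 and 0.77). After scaling these were 0.99 and 0.45 (adjusted p = 0.027 and 0.26). Ifit3b measured 1.79 to 8.46 TPM (median 2.56) and 1.75 to 4.74 TPM (median 4.02), from 2 to 80 reads per library over all 28. The SPF isotype library F2 was the highest of all 12 for Ifit3b. Ifit3 and Ifit3b share 18.55% and 15.99% of their transcripts with each other in windows of the read length, so the split of reads between them is uncertain.

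Among the cytosolic sensors of nucleic acid, 4 rose and Ddx58 fell. Dhx58, which encodes LGP2, a regulator of the other RNA helicase sensors, measured 4.41 to 9.46 TPM (median 5.44) in SPF isotype and 16.9 to 41.8 TPM (median 27.2) in SPF aCD3. No library of either group crossed into the other (log2 fold change 2.05, SE 0.33, limma adjusted p = 1.66e-05). Eif2ak2, the kinase PKR that stops translation on double-stranded RNA, measured 4.77 to 7.27 TPM (median 5.71) and 14.1 to 22.1 TPM (median 16.6), again without overlap (log2 fold change 1.4, SE 0.18, limma adjusted p = 2.81e-06). Zbp1, a sensor of Z-form nucleic acid that can start necroptosis, measured 48.6 to 69.4 TPM (median 65.6) and 89.4 to 174 TPM (median 128), also without overlap (log2 fold change 1.04, SE 0.18, limma adjusted p = 3.43e-05). Ifih1, which encodes the long-RNA sensor MDA5, had a log2 fold change of 0.50 (limma adjusted p = 0.00436). Ddx58, which encodes RIG-I, measured 32.3 to 44.9 TPM (median 36.1) and 17.1 to 31.4 TPM (median 28.96), and all SPF aCD3 libraries were below all isotype libraries (log2 fold change -0.49, SE 0.16, limma adjusted p = 0.0083). After scaling the log2 fold change of Ddx58 was -0.09 (adjusted p = 0.555), so it did not differ from the median gene beyond its error.

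Irf7, the transcription factor that amplifies type I interferon production, and Stat2 rose, and Irf9 was not called. Irf7 measured 59.8 to 85.8 TPM (median 68.7) in SPF isotype and 95.3 to 209 TPM (median 157) in SPF aCD3, without overlap (log2 fold change 1.10, SE 0.24, limma adjusted p = 3.69e-04). Stat2 measured 10.1 to 16.1 TPM (median 12.7) and 12.2 to 20.4 TPM (median 16.4), with 4 of 6 SPF aCD3 libraries above all isotype libraries (log2 fold change 0.30, SE 0.12, limma adjusted p = 0.0297). That call was lost without SPF isotype F3 or M3 or SPF aCD3 F2, F3, M1 or M3, 1 at a time (adjusted p up to 0.0929), and 3.36% of the gene overlaps Apof on the same strand. Irf9 measured 56.5 to 84.5 TPM (median 61.3) and 50.6 to 72.9 TPM (median 68.4), with the highest value of both groups in an isotype library, F2. It was not called in TPM (log2 fold change 0.05, SE 0.11, limma adjusted p = 0.7) and was higher after scaling (0.46, adjusted p = 0.0024).

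The 3 genes of the ISG15 system all rose, and remained called after scaling. Isg15, a ubiquitin-like protein joined to other proteins during an interferon response, lies at chr4:156199424-156200818 (NM_015783), beside the promoter with 3 ISRE matches shown above. It measured 34.3 to 59.4 TPM (median 39.1) in SPF isotype and 61.1 to 197 TPM (median 122) in SPF aCD3, and the lowest SPF aCD3 library, F1, stood just above the highest isotype library (log2 fold change 1.44, SE 0.26, limma adjusted p = 4.68e-05). Usp18, which removes Isg15 from proteins and damps signalling at the type I receptor, measured 1.004 to 2.26 TPM (median 1.505) and 1.62 to 7.63 TPM (median 3.94), with 5 of 6 SPF aCD3 libraries above all isotype libraries (log2 fold change 1.03, SE 0.27, limma adjusted p = 0.00163). Herc6, the ligase that attaches Isg15 in mice, measured 3.63 to 5.85 TPM (median 4.92) and 5.07 to 8.53 TPM (median 6.43), with 4 of 6 SPF aCD3 libraries above all isotype libraries (log2 fold change 0.38, SE 0.11, limma adjusted p = 0.00383). Herc6 shares 17.86% of its transcript with Gm45193 in windows of the read length.

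Of 9 tested antiviral effectors 6 rose and 2 fell. Bst2, the tetherin that holds budding virus at the membrane, measured 9.76 to 29.7 TPM (median 27.04) in SPF isotype and 54.3 to 162 TPM (median 78.5) in SPF aCD3. The groups did not overlap, although SPF isotype F2 was far below its group (log2 fold change 1.93, SE 0.32, limma adjusted p = 2.46e-05). Cmpk2, a mitochondrial nucleotide kinase, measured 3.23 to 6.62 TPM (median 4.197) and 9.41 to 30.2 TPM (median 19.8), without overlap (log2 fold change 1.92, SE 0.31, limma adjusted p = 1.58e-05). Its neighbour Rsad2, which encodes the broad antiviral enzyme viperin, measured 2.09 to 6.005 TPM (median 2.41) and 3.52 to 15.6 TPM (median 7.96), with F1 alone inside the isotype range (log2 fold change 1.31, SE 0.29, limma adjusted p = 4.07e-04). The GTPase gene Mx1, the chaperone gene Rtp4 and the exonuclease gene Isg20, each with 5 of 6 SPF aCD3 libraries above all isotype libraries, had log2 fold changes of 1.05, 1.01 and 0.49. The call of Isg20 was lost without SPF isotype F2 or SPF aCD3 F2, F3, M2 or M3, 1 at a time (adjusted p up to 0.0932), and also with the replicate block. Ifi47, a GTPase of the immunity-related family, fell. It measured 116 to 184 TPM (median 150.1) in SPF isotype and 74.5 to 101 TPM (median 95.3) in SPF aCD3, with no overlap (log2 fold change -0.70, SE 0.14, limma adjusted p = 1.49e-04). It was the one member still lower after scaling (-0.29, adjusted p = 0.0485). Znfx1, a helicase-like RNA sensor, fell in TPM (-0.60, limma adjusted p = 0.00111) and was not called after scaling (-0.20, adjusted p = 0.112). Samd9l was not called (-0.17, limma adjusted p = 0.211), and Ifi44 was not tested, with at least 1 TPM in 4 of the 28 libraries. Ifi44 measured 0 to 0.365 TPM (median 0.056) in SPF isotype and 0.25 to 3.91 TPM (median 0.662) in SPF aCD3.

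The remaining roles held both rising and uncalled genes. Trim30a, a ubiquitin ligase of the tripartite motif family, measured 28.2 to 37.8 TPM (median 30.2) in SPF isotype and 50.3 to 94.6 TPM (median 65.7) in SPF aCD3, without overlap (log2 fold change 1.10, SE 0.19, limma adjusted p = 3.34e-05). Parp9, an ADP-ribosyltransferase family member, rose by 0.67 on the log2 scale, while its binding partner Dtx3l, which lies beside it on the opposite strand, and Parp14 were not called in TPM and were higher after scaling. Dtx3l measured 111 to 157 TPM (median 129) and 107 to 152 TPM (median 139.6) (log2 fold change 0.09, SE 0.09, limma adjusted p = 0.426). The start of Parp9 overlaps that of Dtx3l by 557 bases, where reads could not be assigned without strand. None of the 3 Schlafen genes, regulators of lymphocyte quiescence and RNA, was called by limma or had an unadjusted p under 0.05, and by voom and after scaling Slfn1 and Slfn8 were higher. Slfn1 measured 59.01 to 88.3 TPM (median 78.4) and 60.03 to 108 TPM (median 95.6) (log2 fold change 0.26, SE 0.18, limma adjusted p = 0.208), and Slfn8 30.9 to 57.04 TPM (median 41.2) and 29.97 to 62.3 TPM (median 40.7) (log2 fold change 0.05, SE 0.17, limma adjusted p = 0.784).

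Of the nuclear factors 3 of 4 tested rose. Phf11b, a PHD finger protein, measured 4.83 to 7.56 TPM (median 5.45) in SPF isotype and 14.6 to 23.4 TPM (median 17.5) in SPF aCD3, without overlap (log2 fold change 1.53, SE 0.20, limma adjusted p = 2.81e-06). Xaf1, which promotes cell death, measured 8.76 to 13.4 TPM (median 10.8) and 16.9 to 37.9 TPM (median 30.7), again without overlap (log2 fold change 1.34, SE 0.24, limma adjusted p = 4.58e-05). Daxx, a histone chaperone of nuclear bodies, measured 33.4 to 40.5 TPM (median 36.01) and 40.5 to 79.8 TPM (median 64.6), and SPF aCD3 F1 lay just under the highest isotype library (log2 fold change 0.74, SE 0.12, limma adjusted p = 2.07e-05). Sp100, another protein of these bodies, was not called in TPM (log2 fold change -0.09) and was higher after scaling (0.32, adjusted p = 6.99e-04). It measured 38.3 to 48.4 TPM (median 45.2) and 35.8 to 47.6 TPM (median 43.3). Phf11d was not tested, since none of the 28 libraries reached 1 TPM.

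The SPF aCD3 libraries differed in level, and F1 was the lowest of its group for 40 of the 44 members. In F1 15 members were above every SPF isotype library, against 27 to 34 in the other 5. Of all genes 15.6% were above every SPF isotype library in F1 and 12.9% to 18.7% in the other 5, and Lag3 in F1 was 573 TPM, within the range of its group. F2 was the highest for 31 members. Without F1, 33 members rose and 4 fell, against 13.7% and 48.5% of all genes, and these included all 28 higher and 4 lower calls made with F1. Pairwise Pearson correlations between members over the 6 SPF aCD3 libraries had a median of 0.84, against 0.40 in SPF isotype, 0.67 in GF isotype and 0.52 in GF aCD3, over 946 gene pairs that share the same libraries. Over all pairs of tested genes that varied in a group the medians were 0.117, 0.218, 0.0575 and 0.312, in the same order. These correlations describe these libraries and were not tested. In GF isotype, F5 was the highest of 10 libraries for 38 of the 44 members. Tlr7, a sensor of single-stranded RNA that was picked after its values were seen, was 12.99 TPM in GF isotype F5, where the highest of the other 9 was 2.64 TPM.

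**Figure D3:**
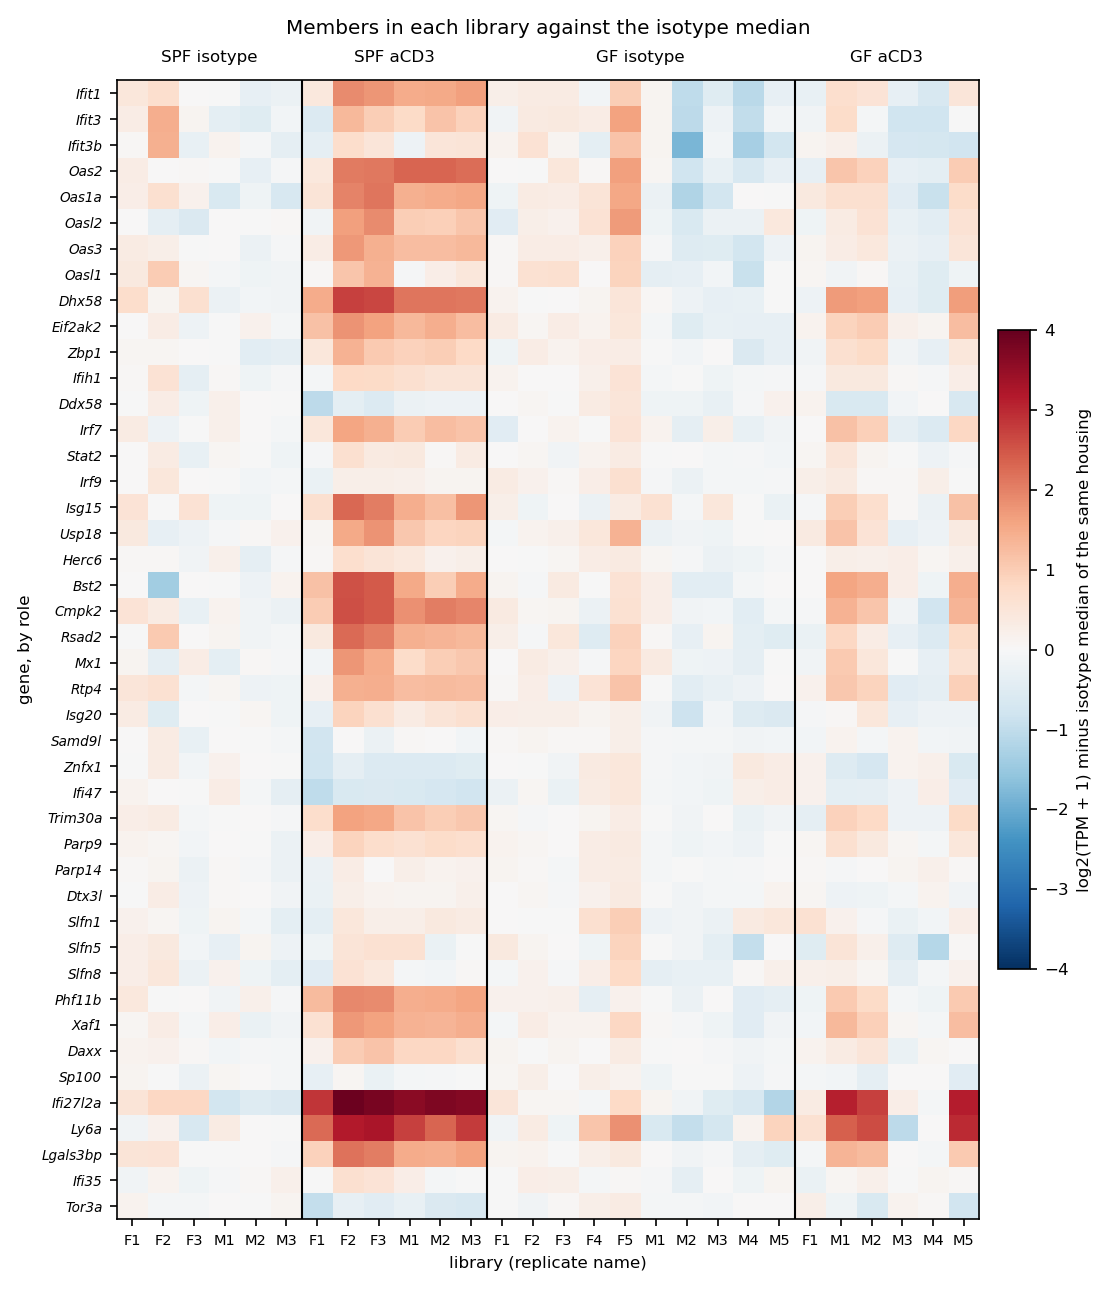
Difference in log2(TPM + 1) of each of 44 members (rows, by role) in each of 28 libraries (columns) from the median of the isotype libraries of the same housing. The SPF aCD3 columns are red for most rows, least so in F1, and the GF aCD3 columns M1, M2 and M5 are redder than F1, M3 and M4, while GF isotype F5 stands out among the isotype columns.

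The genes upstream of the members were called in shares near those of all genes. The pathway lists held 41 genes with a row, of which 31 were tested, and in SPF aCD3 against SPF isotype 4 of these rose and 18 fell, against the 14.2% and 50.7% of all genes given above. After scaling 10 were higher and 8 lower, against 30.2% and 29.8% of all genes. Among the ligands, Ifnb1, Ifna1, Ifna2, Ifna4, Ifne and Ifnl3 had 0 reads in each of the 28 libraries, which allows up to 3 reads in a library, for counting error only. Interferon gamma, Ifng, measured 180.3 to 255 TPM (median 217) in SPF isotype and 247 to 358 TPM (median 296) in SPF aCD3 (log2 fold change 0.46, SE 0.13, limma adjusted p = 0.00351). Ifnk, with 0 to 10 reads per library, had the largest change of the ligands (-0.48) and was not called. All 4 called receptor genes fell in TPM, and after scaling 2 of them did. Ifnar2, a chain of the type I receptor, measured 10.6 to 17.3 TPM (median 14.7) and 6.53 to 9.16 TPM (median 8.09), without overlap (log2 fold change -0.77, SE 0.17, limma adjusted p = 3.01e-04), and stayed lower after scaling (-0.40, adjusted p = 0.00378). Jak2, a kinase of the interferon gamma receptor among others, had the largest fall of the kinases and STATs, -1.28 in TPM and -0.87 after scaling. Of the other interferon regulatory factors, Irf8 measured 2.63 to 4.195 TPM (median 3.12) and 8.48 to 11.3 TPM (median 9.45), without overlap (log2 fold change 1.36, SE 0.20, limma adjusted p = 6.8e-06). Irf4 rose by 0.68, and Irf1 fell by 0.94 on the log2 scale. Among inhibitors Pias1 fell the most (-1.18 in TPM, -0.81 after scaling), and among adaptors Myd88 rose (log2 fold change 0.72, SE 0.09, limma adjusted p = 2.29e-06).

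Markers of other cells moved with the same comparison. The summed level of 8 B and plasma cell markers was 96.5 to 273 TPM in SPF isotype and 2.95 to 9.16 TPM in SPF aCD3, and that of 7 stromal and endothelial markers 14.3 to 40.6 and 2.67 to 4.46 TPM. The summed level of 8 myeloid markers was 1.78 to 11.6 TPM in SPF isotype and 57.5 to 106 TPM in SPF aCD3. Of that sum Cd68 alone held 54.4 to 105.8 TPM, while Lyz2 stayed at or under 0.503 TPM and C1qa and C1qb were at 0 in SPF aCD3. The 6 markers of plasmacytoid dendritic cells, a strong source of type I interferon, summed to at most 5.52 TPM in SPF isotype and 2.92 TPM in SPF aCD3. The summed level of 2 CD8 T cell markers was 5.68 to 13.5 TPM in SPF isotype libraries and 9.75 to 23.8 TPM after aCD3. The summed level of 5 erythroid markers was 2.29 to 10.2 TPM in SPF isotype and 0.716 to 1.28 TPM in SPF aCD3, and that of 8 epithelial markers 5.92 to 13 and 4.82 to 24.8 TPM. Of 6 tested epithelial markers 1 was called higher and 1 lower, and Reg3b had a median of 0.647 TPM in SPF isotype and 12.1 TPM in SPF aCD3. The part of these cells in the members' changes was not tested, and in bulk RNA fewer cells of a type and less RNA per cell cannot be told apart.

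In GF mice 2 of the 44 members rose after aCD3, Ifi27l2a and Eif2ak2, and none was called lower. Of all genes 2.46% rose and 4.61% fell, 7.08% in either direction. At an unadjusted p under 0.05, limma gave 9 members higher and 2 lower, against 8.73% and 27% of all genes, and voom on recovered reads gave 3 called higher and 0 lower, against 3.73% and 4.06% of all genes. The members' median log2 fold change was 0.19, against -0.15 for all genes tested. After scaling 3 members were higher, the third being Lgals3bp (0.82, adjusted p = 0.0487), against 5.62% of all genes higher and 4.02% lower.

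Ifi27l2a was 574, 437 and 583 TPM in GF aCD3 M1, M2 and M5 and 81.7, 78.9 and 61.3 TPM in F1, M3 and M4. GF isotype measured 28.4 to 115 TPM (median 65.3), so the first 3 libraries were above every isotype library and the other 3 lay inside their range (log2 fold change 1.80, SE 0.44, limma adjusted p = 0.0481). Eif2ak2 was 19.1, 20.7 and 24.5 TPM in M1, M2 and M5 and 10.9, 11.4 and 10.8 TPM in F1, M3 and M4, against 6.78 to 13.8 TPM (median 9.83) in GF isotype. Again M1, M2 and M5 were above every isotype library and the others within the range (log2 fold change 0.68, SE 0.17, limma adjusted p = 0.0481). The same 3 libraries were high for Ly6a, at 602, 704 and 915 TPM, where F1, M3 and M4 had 174, 55.03 and 116 TPM. Ly6a was not called (log2 fold change 1.15, SE 0.49, limma adjusted p = 0.0983) but was without M3 or M4 (adjusted p = 0.0119 and 0.0401), with GF isotype at 58.4 to 413 TPM (median 115).

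Isg15 in GF aCD3 was 109, 86.7 and 125 TPM in M1, M2 and M5 and 52.4, 56.3 and 45.9 TPM in F1, M3 and M4, against 45.4 to 84.3 TPM (median 54.5) in GF isotype. It was not called (log2 fold change 0.35, SE 0.24, limma adjusted p = 0.283). Dhx58 was 27.7, 26.3 and 27.02 TPM in the first 3 and 6.76, 6.01 and 5.27 TPM in the others, against 6.04 to 11.4 TPM (median 7.85) in GF isotype (log2 fold change 0.73, SE 0.30, limma adjusted p = 0.0963), and it was called without F1, M3 or M4 (adjusted p = 0.0213, 0.0255 and 0.0223). Counted over the 44 members, M1, M2 and M5 had 17, 16 and 14 above every GF isotype library, and F1, M3 and M4 had 0 each. Of all genes 13.8%, 14.3% and 12.2% were above every GF isotype library in M1, M2 and M5, and 6.44%, 19.3% and 7.6% in F1, M3 and M4. The 3 libraries with 0 are those with Lag3 in the isotype range, a description of single libraries and no comparison of groups. Of the 31 tested pathway genes 2 fell and 0 rose in GF mice, against 4.61% and 2.46% of all genes. After scaling 4 were lower and 0 higher, against 4.02% and 5.62% of all genes. The 2 that fell in TPM were Ifnar2 (-0.57) and Irf1 (-0.58), with limma adjusted p from 0.00572 to 0.177 and from 0.00538 to 0.177 when 1 library was left out. The summed B and plasma cell markers were 11.3 to 115 TPM in the isotype libraries of GF mice and 6.87 to 98.8 TPM in those given aCD3, and the myeloid markers 3.53 to 20.3 and 9.10 to 59.1 TPM, and their part in the members' values was not tested.

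The calls in GF mice depended on single libraries. Leaving out GF aCD3 F1, M3 or M4, 1 at a time, gave 9, 9 and 10 members higher and 1 lower in each fit, while leaving out M1, M2 or M5, or any of the 10 GF isotype libraries, gave 0, when 0% of all genes were called. In the fits without F1, M3 or M4, 8.18%, 6.63% and 7.59% of all genes were higher and 21.6%, 28% and 24.1% lower. Within sample numbers 25 to 33 (3 aCD3, 6 isotype) 0 members were called by limma, against 0.00821% of all genes. At an unadjusted p under 0.05, 15 were higher and 0 lower there, against 7.49% and 6.66% of all genes, and the log2 fold change of Ifi27l2a was 2.22. Within 48 to 54 (3 aCD3, 4 isotype) 0 were called, against 0.00821% of all genes. There 0 had an unadjusted p under 0.05, against 2.94% of all genes, and the log2 fold change of Ifi27l2a was 1.45. That of Eif2ak2 was 0.98 and 0.53 in the same fits.

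The effect of aCD3 differed between the libraries labelled GF and SPF for Phf11b and Daxx, with all 6 libraries labelled GF aCD3 in the fit. In the same contrast 2 of 3 tested stromal and endothelial markers and 1 of 3 B and plasma cell markers were higher and 1 of 2 myeloid markers lower, and their part was not tested. The aCD3 effects of both genes in GF minus those in SPF were -1.01 and -0.60 on the log2 scale (limma adjusted p = 0.0412 and 0.0464). Of all genes 1.04% had a lower and 2.44% a higher effect in GF mice, 3.48% in either direction. Phf11b measured 4.89 to 8.22 TPM (median 7.07) in the GF isotype libraries. After aCD3 in GF mice it was 15.6, 12.8 and 15.6 TPM in M1, M2 and M5, all above every isotype library, and 6.23, 6.68 and 6.17 TPM in F1, M3 and M4. In GF mice Daxx measured 37.03 to 51.8 TPM (median 41.3) with isotype and 34.1 to 57.6 TPM (median 44.5) with aCD3, so that these groups overlapped. These groups are those of the 2 comparisons above, joined in 1 fit. The difference was positive for 7 of the 44 members and had a median of -0.65, against 0.20 for all genes tested. After scaling it was called lower for 15 members and higher for 0 by limma, against 6.04% and 5.3% of all genes. At an unadjusted p under 0.05 it was lower for 31 and higher for 0, against 17.1% and 15.6% of all genes. By voom it was called lower for 17 and higher for 0, against 6.53% and 6.82%. For Ifi27l2a and Ly6a a difference was not shown (-1.73 and -1.66, adjusted p = 0.0868 and 0.12), although without GF aCD3 M1, M2 or M5 Ifi27l2a was called (0.0351, 0.0372 and 0.0223), as was Ly6a without M5 (0.0365). The calls of Phf11b and Daxx rested on single libraries and were both lost, among others, without GF aCD3 F1, M3 or M4, where the adjusted p was 0.131, 0.0799 and 0.0838 for Phf11b and 0.127, 0.0881 and 0.0838 for Daxx. Leaving out GF aCD3 M1, M2 or M5 gave 20, 16 and 20 members lower (and 2 higher without M5), when 3.91%, 4.99% and 5.27% of all genes were lower and 12.9%, 15.5% and 20.9% higher. Leaving out SPF aCD3 F1 or SPF isotype F3 gave 9 and 7 lower, when 0.837% and 2.34% of all genes were lower and 1.44% and 14.7% higher. GF isotype F4 gave 2 and GF isotype M4 gave 3, when 3.45% and 3.49% of all genes were called. Leaving out SPF isotype F1, GF isotype M2 or GF isotype M5 gave 1, when 1.97%, 2.59% and 2.82% of all genes were called. Each of the other 18 libraries gave 0, when 0.263% to 2.21% of all genes were called.

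**Figure D4:**
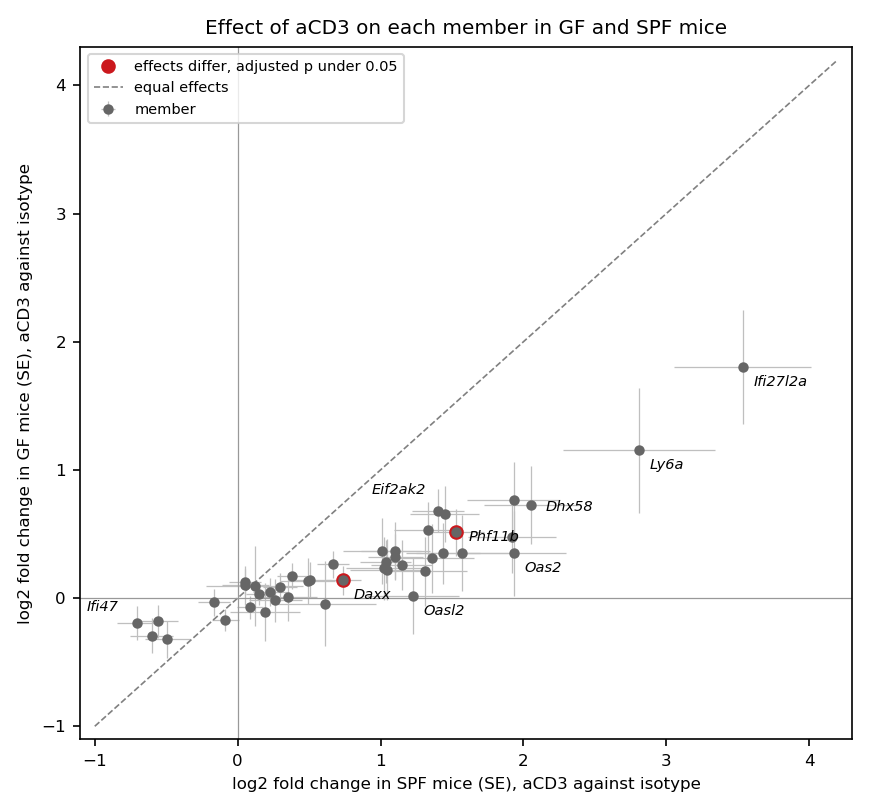
Log2 fold change of each of the 44 tested members after aCD3 in SPF mice (x axis) and in GF mice (y axis), with SE bars. Red points are Phf11b and Daxx, called in the limma test of the difference with all libraries labelled GF aCD3 in the fit. Both calls were lost without GF aCD3 F1, M3 or M4, 1 at a time. The dashed line marks equal effects. Most members lie below the line, with Ifi27l2a at 3.54 in SPF and 1.80 in GF mice.

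Without aCD3, 1 member was called between GF and SPF mice. In GF isotype against SPF isotype Eif2ak2 was higher in GF mice (log2 fold change 0.64, SE 0.16, limma adjusted p = 0.0189), where it measured 6.78 to 13.8 TPM (median 9.83) against 4.77 to 7.27 TPM (median 5.71) in SPF isotype. Of all genes 6.42% were higher and 0.755% lower, 7.17% in either direction. At an unadjusted p under 0.05 limma gave 7 members higher and 0 lower, against 23.2% and 2.29% of all genes, and voom called 0, against 2.06% and 0.96%. The summed B and plasma cell markers were 96.5 to 273 TPM in SPF isotype and 11.3 to 115 TPM in the GF isotype libraries, and the stromal and endothelial markers 14.3 to 40.6 and 7.46 to 13.5 TPM, with 1 and 2 of 3 tested markers lower in GF mice, and their part was not tested. Without SPF isotype F2, F3 or M1 the called members numbered 3, 0 and 2, when 6.46%, 2.67% and 8.13% of all genes were called. The members' median log2 fold change was 0.20, against 0.15 for all genes. After scaling Eif2ak2 had a log2 fold change of 0.50 and was not called (adjusted p = 0.255), when 0.517% of all genes were higher and 1.16% lower. Of the 31 tested pathway genes 4 were higher and 0 lower in GF isotype, against 6.42% and 0.755% of all genes. After scaling 1 was higher and 0 lower, against 0.517% and 1.16%. That 1 was Ifnar1, the other chain of the type I receptor, named after its values were seen. It was higher in GF isotype (log2 fold change 0.75, SE 0.18, limma adjusted p = 0.0118) and remained so after scaling (0.59, adjusted p = 0.0145).

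Between the aCD3 groups, 17 members were lower and 6 higher in GF mice. Of all genes 4.46% were lower and 48.9% higher, 53.3% in either direction. After scaling 26 members were lower and 1, Tor3a, was higher, against 16.7% and 16% of all genes. Most of these calls were lost with array weights, which left 2 members lower and 2 higher (1.63% and 28.6% of all genes), and in a fit of the compared groups only, which left 7 lower and 2 higher (2.44% and 35.2% of all genes). The largest differences were those of Ly6a (-1.66), Ifi27l2a (-1.60) and Oasl2 (-1.36, limma adjusted p = 0.00206), all still lower after scaling. Oasl2 measured 3.73 to 18.5 TPM (median 9.78) in SPF aCD3 and 1.89 to 4.79 TPM (median 3.13) in GF aCD3. The 6 that were higher in TPM were Ddx58, Irf9, Samd9l, Ifi47, Znfx1 and Tor3a, of which Ddx58, Irf9 and Samd9l had a log2 fold change below 0 after scaling. Tor3a measured 3.102 to 5.43 TPM (median 4.52) and 4.64 to 10.3 TPM (median 8.198) (log2 fold change 0.67, SE 0.14, limma adjusted p = 9.47e-04). Without GF aCD3 F1, M3 or M4 the called members numbered 8, 15 and 14. Of these, 6, 12 and 12 were lower, when 2.23%, 3.05% and 2.84% of all genes were lower and 37.8%, 40.5% and 41.3% higher. Without M1, M2 or M5 the called members numbered 26, 25 and 26, when 57.1%, 56.9% and 59.4% of all genes were called. Without GF aCD3 F1 the calls of Ly6a (-1.41, adjusted p = 0.057) and Ifi27l2a (-1.15, adjusted p = 0.0628) were lost, while those of Oasl2, Tor3a and Ifi47 held without any 1 of the 6 GF aCD3 libraries. Of the other genes higher in TPM, Ddx58 and Znfx1 were no longer called without F1, M3 or M4 (adjusted p up to 0.18 and 0.08), Irf9 without F1, M1 or M4 (up to 0.0793) and Samd9l without any 1 of the 6 except M5 (up to 0.0964). The summed myeloid markers were 57.5 to 106 TPM after aCD3 in SPF mice and 9.10 to 59.1 TPM in GF mice, with 1 of 2 tested markers lower in GF mice. Of the other marker lists, 1 tested marker each of B and plasma, stromal, erythroid and CD4 T cells was higher in GF mice, and of 6 tested epithelial markers 1 was higher and 1 lower. Their part in the members' differences was not tested. This comparison uses the same aCD3 libraries as the comparisons with isotype, so its values are not independent of theirs.

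The members lie in several gene clusters, and differences between neighbours were not tested. Ifit3, Ifit3b and Ifit1 lie within chr19:34583529-34650009 (mm10), with log2 fold changes in SPF mice of 0.61, 0.12 and 1.36. Parp14, Dtx3l and Parp9 lie within chr16:35832878-35972621, at 0.15, 0.09 and 0.67. Oas2 and Oas3 lie within chr5:120730333-120777659, at 1.93 and 1.15, and Oasl2 and Oasl1 within chr5:114896934-114937911, at 1.23 and 0.35. Rsad2 and Cmpk2 lie within chr12:26442743-26479837 and both rose. The 3 Schlafen members within chr11:82952102-83122670 were all uncalled, and Slfn5 overlaps the antisense gene Slfn5os over 67.3% of its length, so its reads may include those of that gene.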

How the data were processed

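RNA was sequenced from sorted CD4+ T cells with a total RNA kit as single reads, per the labels' protocols, although the labels also name polyA RNA. The deposited values are TPM, which the authors computed per gene with HOMER against mm10, per the file headers. The gene length used equals the genomic span in 99.24% of the 25124 rows, and use of strand is not given in the sources used here. Of the columns 28 were used and 26 matched no sample. Whole reads were recovered from the TPM steps (100% of low values whole within 0.1 read), for depth and for voom.

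limma 3.58.1 (R 4.3.3) was fitted to log2(TPM + 1) with group and sex over all 28 libraries, for 12182 genes with at least 1 TPM in at least 6 libraries, with Benjamini-Hochberg adjustment within each comparison at 0.05, and was tested on simulated data. Tables and motif searches used Python 3.11.15, pandas 2.3.3 and NumPy 2.4.6. The members and lists were chosen with earlier results of these data known. Genes named were those with the highest mean TPM, the highest and the lowest log2 fold change in each role, the members called in the comparisons in GF mice, between the isotype groups and of the difference between housings, and the largest change in each pathway list. Other genes named were chosen after their values were seen. Replicate names shared between groups did not pair the libraries. No pair of libraries held identical values. Alternatives covered the pseudocount, the filter, scaling, weights, the replicate block, voom and leaving out each library. The values of 1 gene of the pathway lists are not reported here.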

Additional observations from a re-analysis of the deposited data

Results flagged for a closer look

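Of 100 sets of 6 or 10 values examined, 14 held a library far from the others of its group, where about 5 would be expected of independent sets. The sets share libraries and are not independent, so 14 against 5 does not measure an excess. All 14 lay in GF isotype F5, SPF aCD3 F1 or SPF isotype F2. GF isotype F5 was high for Ifit1 (42.9 TPM, others 9.48 to 26.8), Oas3 (31.7 TPM, others 9.41 to 20.2), Oas2 (5.69 TPM, others 0.245 to 1.97), Dhx58 (11.4 TPM, others 6.04 to 8.72), Slfn8 (71.6 TPM, others 31.6 to 48.8) and Daxx (51.8 TPM, others 37.0 to 44.3). SPF aCD3 F1 was low for Oas2 (1.10 TPM, others 5.63 to 6.91), Irf9 (50.6 TPM, others 65.5 to 72.9), Dtx3l (107 TPM, others 138 to 152), Slfn1 (60.0 TPM, others 91.5 to 108) and Ifi27l2a (392 TPM, others 666 to 817). SPF isotype F2 was high for Ifit3b (8.46 TPM, others 1.79 to 2.96) and Irf9 (84.5 TPM, others 56.5 to 61.9), and low for Bst2 (9.76 TPM, others 23.3 to 29.7).

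The aCD3 effect in GF mice minus that in SPF mice was -0.60 for Daxx and -1.01 for Phf11b on the log2 scale, both past the threshold in the limma test of the difference. Both calls were lost without GF aCD3 F1, M3 or M4, 1 at a time.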

How the results depend on the processing

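In SPF mice all 11 alternatives gave 30 to 39 called members against 32, when 41.3% to 72.1% of all genes were called, and leaving out 1 library gave 30 to 37, when 61% to 66.2% were. Sp100 reversed there, to 0.32 after scaling by median of ratios, 0.18 without Rn45s and histone genes and 0.29 with voom. For aCD3 in GF mice, against 2, the called members numbered 0 with a pseudocount of 0.1, with no filter and with the compared groups only. In each of these fits 0% of all genes were called. Within each run of sample numbers 0 members were called, against 0.00821% of all genes. With the run as a covariate 5 were called (4 higher and 1 lower, against 5.99% and 12.2% of all genes). With array weights 10 were called, all higher, against 6.48% of all genes higher and 23.4% lower. Leaving out 1 library gave 0 to 11, when 0% to 34.6% of all genes were called. Between the isotype groups, against 1, the called members numbered 0 after scaling and with voom, when 1.67% and 3.02% of all genes were called. They numbered 5 without Rn45s and histone genes, 4 with array weights and 6 with the compared groups only, all below the shares of all genes (19.8%, 15.6% and 14.9%). Leaving out 1 library gave 0 to 3, when 2.67% to 8.13% of all genes were called. Between the aCD3 groups, against 23, the called members numbered 4 with array weights and 9 with the compared groups only, when 30.2% and 37.6% of all genes were called. Without 1 library they numbered 8 to 26, when 40.1% to 59.4% of all genes were called. Scaling reversed Ddx58 (-0.0023) there, and scaling and voom reversed Irf9 (-0.12 and -0.047), Samd9l (-0.11 and -0.033), Parp14 (-0.36 and -0.28) and Sp100 (-0.33 and -0.25). For the difference between housings, against 2, the called members numbered 1 with a pseudocount of 5, when 2.24% of all genes were called. They numbered 0 with no filter and with array weights, when 1.13% and 1.31% of all genes were called. After scaling 15 and with voom 17 were called, all lower (against 6.04% and 6.53% of all genes). Without 1 library 0 to 22 were called, when 0.263% to 26.2% of all genes were. The cause of these changes was not tested. The fit of the compared groups only was not run for that difference, which uses all groups.

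With the replicate block, 31 members were called in SPF mice, 0 in GF mice, 1 between the isotype groups, 18 between the aCD3 groups and 0 for the difference between housings, when 64%, 0%, 5.4%, 46.9% and 1.33% of all genes were called. Libraries of the same name correlated at -0.30 to 0.21, and none correlated best with its own name.

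GF aCD3 held 1 female library of 6, the housing and the sample numbers cannot be told apart, and TPM shares make every value depend on the other genes of its library. Genes with few reads, such as Ifit3b, Oas2 and Ifi44, are measured with the least precision.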
